A study of Mus musculus with 24 samples.

Results

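The abundant antisense transcripts of mouse islet cells were the 100 genes with the largest read count, summed over 24 mRNA libraries, among the 2991 genes that the deposited annotation classes as antisense, out of 41549 genes in all. An antisense gene of this class is a long RNA gene that lies on the opposite strand of another gene, most often a protein-coding one, and it is unrelated to the antisense oligonucleotides (ASOs) that were transfected in the experiment. Because the members were chosen by these summed counts over all libraries, their abundance is a description here and not a result. Of the antisense genes, 2068 had at least 1 read, and the 100 members held 64.9% of all antisense reads. The last 3 genes inside the limit were 9330020H09Rik with a summed count of 1580, Gm50145 with 1578 and A230072E10Rik with 1573, and the first 3 outside it were Gm12500 with 1559, Gm10138 with 1539 and Gm11131 with 1534. Ranking the antisense genes by CPM (counts scaled to the library total) retained 99 of the 100 members, and ranking by TPM (the same after division by transcript length) retained 71.

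Dispersed islet cells of wild-type mice were transfected with 50 pmol of a control ASO (Ctr) or of an ASO against the tRNA fragment 5'tRF-Glu(CTC) (αGlu), and then cultured for 48 h with 0.5 mM palmitate (PA) bound to bovine serum albumin or with 0.75% BSA alone. This gave 6 libraries of Ctr BSA, αGlu BSA, Ctr PA and αGlu PA cells, 3 of them in each of 2 batches, and the labels do not say what distinguishes the batches. The study lists C57BL/6NRj males and females aged 12 to 14 weeks among its wild-type animals without tying them to single libraries. The islet preparation was a mixture of endocrine and other cells, so that in these bulk samples fewer cells of a type and less RNA per cell cannot be told apart. Library totals ran from 18214719 to 35001979 reads on genes, all 9 β-cell markers were detected at a summed 83829 to 151648 CPM, and 5 of 6 lymphocyte markers stayed under 1 CPM in every library. The p-values rest on the spread between libraries of the same group once batch is accounted for, pooled over all groups. The study describes the 6 libraries of a group as independent experiments, but the labels do not trace them to separate animals.

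Antisense transcripts can act on the locus they come from, by transcription through the opposite gene, by recruiting chromatin regulators or by pairing with the sense RNA, and many have no known function. Kcnq1ot1 and Airn are well-studied cases, each transcribed from 1 parental allele and needed for the imprinted silencing of neighbouring genes. In the islet, Plut lies at the locus of Pdx1, a transcription factor that maintains β-cell identity, and Pax6os1 lies at the locus of Pax6, which encodes a further islet transcription factor.

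The antisense transcripts formed a small and uneven share of the islet transcriptome. The 100 members took 0.0585% to 0.0758% of the reads of a library. This share had a lowest, median and highest value of 0.0585%, 0.0641% and 0.0718% in Ctr BSA, of 0.0647%, 0.0709% and 0.0758% in Ctr PA, of 0.0607%, 0.0647% and 0.0681% in αGlu BSA, and of 0.0677%, 0.0708% and 0.0736% in αGlu PA. The ranges of the Ctr groups overlapped, and those of the αGlu groups did so by a narrow margin. The 5 most counted members held 20.05% of all member reads and the first 20 held 48.9%. Mean counts per library ran from 65.5 to 1036 with a median of 117, and no member fell below 18 reads in any library, so all 100 passed the filter on low counts and were tested.

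Kcnq1ot1 had the largest summed count, 24857 reads. It was followed by Brip1os, opposite the DNA helicase gene Brip1, with 19398 reads, and by 1110002L01Rik, opposite the kinesin gene Kif3c, with 15404. The next members were 1600020E01Rik at Pcbp1, which encodes an RNA-binding protein, with 13889 reads, Rab10os at the vesicle traffic gene Rab10 with 12887, 4933431E20Rik with 11382, 6330403L08Rik at the growth factor gene Pdgfa with 10913, Pax6os1 with 10535, Gm26782 at Tep1 with 10492, and 1700110K17Rik at Gramd1b, which encodes a sterol transport protein, with 8829. Per length the order was another one. On the TPM scale Ttc39aos1 was highest at 41.1 ± 9.90 (SD, n = 24), next to Gm14097 at 39.4 ± 8.76, 2410021H03Rik at 38.1 ± 16.03 and 1700110K17Rik at 37.6 ± 9.06, which differed from each other by less than their spread over libraries, and Pax6os1 followed at 28.5 ± 3.40. Kcnq1ot1 had only 1.18 ± 0.226 TPM and ranked 98th, with its reads spread over a single exon of 93092 bases. The median member had 6.27 TPM and the lowest, A230072E10Rik, 1.10 TPM. Within a group and batch the SD of log2 CPM had a median of 0.24 over members, from 0.10 in Brip1os to 0.41.

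**Figure D1:**
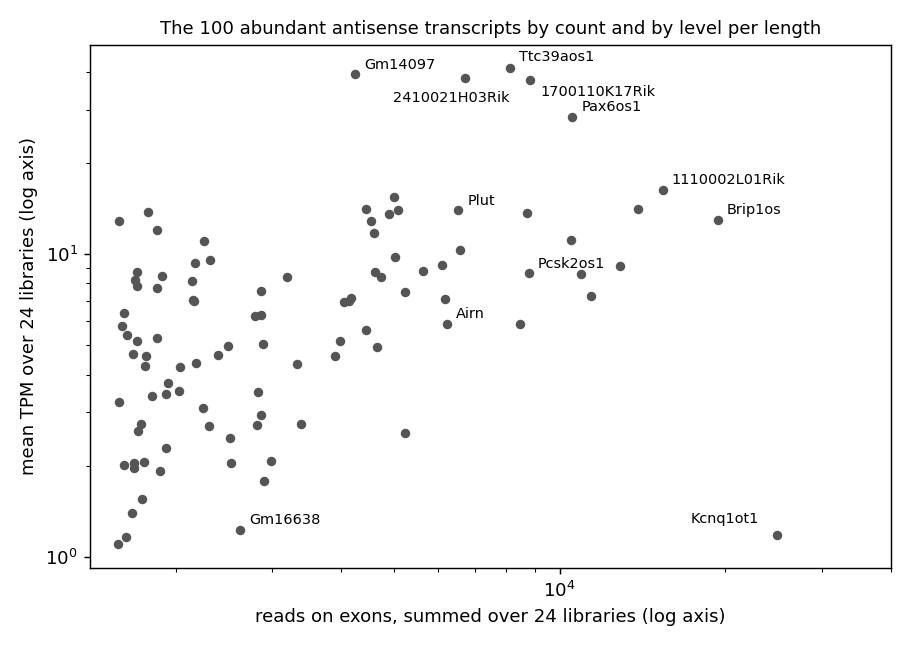
Summed read count over 24 libraries (x axis, log scale) against mean TPM (y axis, log scale) for the 100 abundant antisense transcripts, 1 point per gene. Kcnq1ot1 stands at the right with the most reads, 24857, but near the bottom at 1.18 TPM, and Ttc39aos1 stands at the top with 41.1 TPM.

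All 100 members had an entry in the GENCODE M21 annotation of the mouse genome build GRCm38, where 98 are also typed as antisense, while Gm10762 is typed there as protein-coding and Snhg16 as a processed transcript. Their exonic length had a median of 2483 bases and a range from 470 to 93092, and 29 members consisted of 1 exon block. The gene bodies of 94 members overlapped an opposite-strand gene. A partner was assigned to 95 members, to 10 from the gene symbol and to 85 from the overlap, and all partners were protein-coding and on the opposite strand (94 distinct genes, because A730011C13Rik and Gm15265 share Pi4kb). For 48 members the annotated start lay within 1000 bases of the start of an opposite-strand protein-coding gene, 19 in divergent orientation and 29 with overlapping starts. Ttc39aos1 (chr4:109403794-109406155, minus strand, 4 exon blocks), for example, starts 468 bases from Ttc39a and runs away from it without shared exonic bases.

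Most of the antisense transcripts were less abundant than the gene opposite them, but not all were. Per length, the antisense transcript stood at a median of 26.96% of the TPM of its partner over 95 pairs, and it was the higher of the pair in 22. Pcsk2os1 was the lowest in relation to its partner, with 8.65 TPM, or 0.336% of Pcsk2, the prohormone convertase gene of endocrine cells. Ttc39aos1 and Ttc39a were nearly level at 41.1 and 41.8 TPM. Brip1os exceeded Brip1 with 13.004 against 0.681 TPM, and 4933431E20Rik exceeded Eps8l3 with 7.26 against 0.138 TPM.

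The libraries were made with a stranded kit, but whether the reads were assigned to genes by strand is not given in the sources used here. Unless strand was used, reads from exons that an antisense gene and its partner share cannot be told apart. The shared part was a median of 10.2% of the antisense exonic bases over 95 pairs. In 17 pairs no exonic base was shared, in 46 less than 10%, and in 6 more than 50%. These 6 were A630072M18Rik with Rsbn1l (95.05%), Gm19412 with Tapbp (85.3%), Gm10501 with Hspa1l (80.8%), 1110002L01Rik with Kif3c (63.4%), Gm13563 with Entr1 (52.1%) and 9130221H12Rik with Gsk3a (52.0%). Among them 1110002L01Rik (16.3 against 7.19 TPM) and Gm10501 (4.37 against 0.480 TPM) stood above their partners.

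One question the design put to these transcripts was their response to PA, a saturated fatty acid that is toxic to β-cells in culture. In cells with the control ASO, PA changed 18 of the 100 antisense transcripts, 14 upward and 4 downward, at an adjusted p below 0.05 in edgeR's quasi-likelihood test with Benjamini-Hochberg adjustment over 15916 genes. This was below the background, since 30% of all genes tested were called in the same comparison, 15.5% raised and 14.5% lowered. The median log2 fold change over the members was 0.10 against 0.01 over all genes, and 69 members had a fold change above 0. In αGlu cells PA changed 23 members, 18 upward and 5 downward, where 28.5% of all genes were called, 14.4% raised and 14.2% lowered, with a median of 0.10 against 0.01 and 63 members above 0. The 348 other antisense genes that could be tested, at a median of 16.6 reads per library, were called at 5.75% and 6.90%, the 505 lincRNA genes at 14.7% and 12.1%, the protein-coding genes at 31.6% and 30.2%, and the 88 tested partners at 31.8% and 30.7% in Ctr and αGlu cells. The lists differ in read depth, with a median of 24.1 reads per library for lincRNA, 117 for the members, 550 for protein-coding genes and 1141 for the partners, and their shares were not compared by a test.

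Most of the transcripts that PA changed with the Ctr ASO also changed with αGlu. The Ctr and αGlu comparisons share no library, but both come from the same fit, with a shared batch term and shared estimates of spread. Per the study, the groups of a replicate were drawn from the same animal or passage, which the labels do not trace to libraries. The agreement of both comparisons is therefore not that of independent experiments. In both comparisons 17 members were called, in the same direction each time, 13 raised and 4 lowered. They made up 94.4% of the Ctr calls and 73.9% of the αGlu calls. The matching overlap among all genes tested was not counted, so whether these shares are particular to the members cannot be said. Each had the same sign in batch 1 and in batch 2 alone, as did every other called member. This is no separate support, because the calls were made on both batches together. Sizes were moderate. The raised members rose by a log2 fold change of 0.17 to 0.81 in Ctr cells and 0.23 to 0.79 in αGlu cells, and only Gm45767, in Ctr cells, passed a 2-fold change at an unadjusted p below 0.05 (5.91% of all genes), with no member doing so in αGlu cells (5.57%). The groups did not overlap at all, PA against BSA, for 4 members in Ctr cells and for 7 in αGlu cells, where the groups did not overlap for 5.82% and 8.12% of all genes tested.

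**Figure D2:**
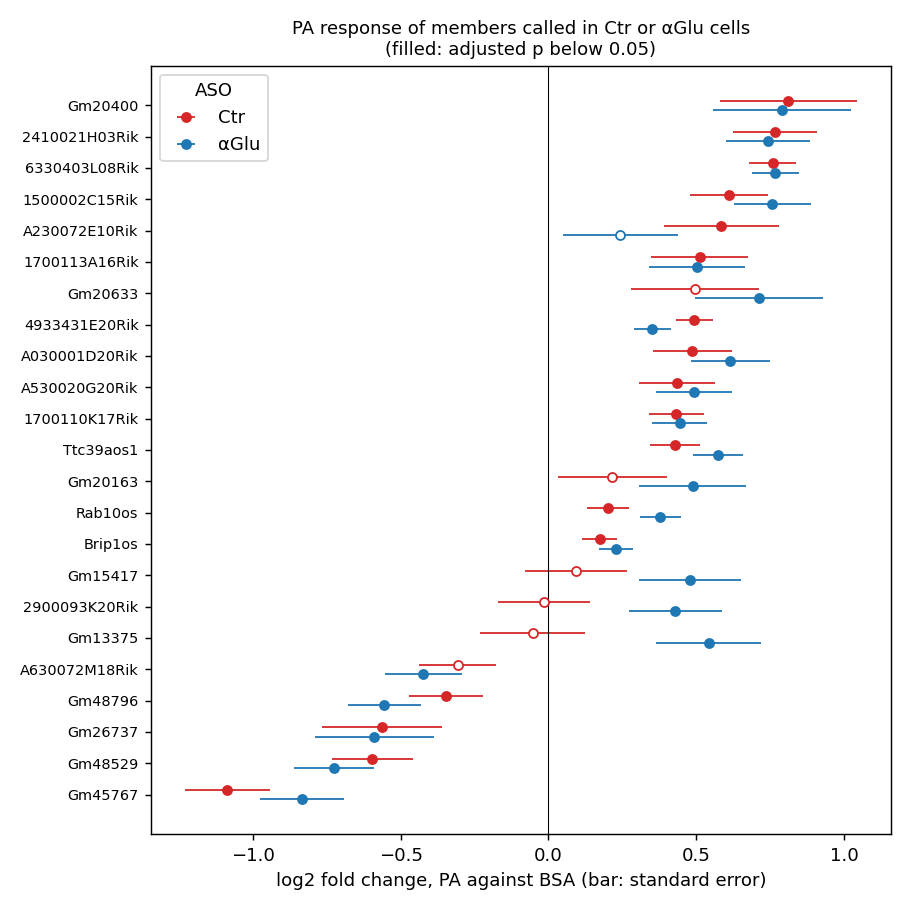
Log2 fold change of PA against BSA (x axis) for antisense transcripts called in Ctr or αGlu cells (y axis), with the standard error as a bar and filled points for an adjusted p below 0.05. Members with both points filled lie on the same side of 0 in Ctr and αGlu cells, from Gm20400 at 0.81 and 0.79 to Gm45767 at -1.09 and -0.83.

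RefSeq promoter windows on GRCm38.p6, from 250 bases before to 50 after the annotated start, were at hand for 50 members and for 8 of the 17 called in both comparisons. Those of 5 raised members whose RefSeq and GENCODE starts lie close together are shown, as the sequences from which the PA-raised transcripts arise. All are from the minus strand and are written 5′ to 3′ in the direction of the antisense transcript. The windows are chr3:107896164-107896463 for 4933431E20Rik, chr17:69277157-69277456 for 2410021H03Rik, chr4:109406208-109406507 for Ttc39aos1, chr7:45638709-45639008 for A030001D20Rik and chr3:88177736-88178035 for 1700113A16Rik. Capitals mark matches, on either strand, to 5 motifs. They are the core promoter element TATAAA, the promoter element CCAAT, which reads as ATTGG when it lies on the other strand, the nuclear receptor element AGGTCA, the DR1 element, which is a direct repeat of AGGTCA and so contains it, and the E-box CACGTG.
4933431E20Rik: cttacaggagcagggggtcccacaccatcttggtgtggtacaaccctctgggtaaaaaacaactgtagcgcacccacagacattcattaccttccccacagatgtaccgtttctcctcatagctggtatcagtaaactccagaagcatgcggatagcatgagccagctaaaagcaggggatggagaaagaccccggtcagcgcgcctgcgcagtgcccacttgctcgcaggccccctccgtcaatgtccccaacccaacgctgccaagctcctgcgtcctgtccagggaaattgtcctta
2410021H03Rik: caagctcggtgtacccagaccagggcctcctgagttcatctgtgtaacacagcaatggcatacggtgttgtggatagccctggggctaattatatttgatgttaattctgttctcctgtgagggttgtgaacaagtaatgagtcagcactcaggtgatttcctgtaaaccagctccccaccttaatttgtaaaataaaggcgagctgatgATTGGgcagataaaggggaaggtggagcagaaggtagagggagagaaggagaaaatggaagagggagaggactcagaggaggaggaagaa
Ttc39aos1: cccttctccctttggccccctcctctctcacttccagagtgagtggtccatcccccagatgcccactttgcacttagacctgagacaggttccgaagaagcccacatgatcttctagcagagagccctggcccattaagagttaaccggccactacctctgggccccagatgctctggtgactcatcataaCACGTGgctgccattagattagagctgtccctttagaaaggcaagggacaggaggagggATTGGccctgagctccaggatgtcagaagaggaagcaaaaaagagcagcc
A030001D20Rik: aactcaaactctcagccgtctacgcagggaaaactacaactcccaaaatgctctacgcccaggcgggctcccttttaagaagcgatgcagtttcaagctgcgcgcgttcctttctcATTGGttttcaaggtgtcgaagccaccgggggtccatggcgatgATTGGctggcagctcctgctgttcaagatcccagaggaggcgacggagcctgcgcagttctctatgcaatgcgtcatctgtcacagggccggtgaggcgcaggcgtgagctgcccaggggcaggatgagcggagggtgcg
1700113A16Rik: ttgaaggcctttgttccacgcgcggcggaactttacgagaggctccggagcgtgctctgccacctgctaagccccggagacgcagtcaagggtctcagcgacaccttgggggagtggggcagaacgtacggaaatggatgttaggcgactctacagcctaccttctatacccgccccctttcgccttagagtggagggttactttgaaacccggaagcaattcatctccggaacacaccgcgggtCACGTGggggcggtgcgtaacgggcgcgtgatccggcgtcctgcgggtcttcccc

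The 5 PA-raised promoters shown had few of these letters in common. Neither TATAAA nor AGGTCA was found in any of the 5. CCAAT was found once in 2410021H03Rik and Ttc39aos1 and 2 times in A030001D20Rik, CACGTG once in Ttc39aos1 and 1700113A16Rik, and none of them in 4933431E20Rik. Over 32851 RefSeq promoters of the same length, CCAAT was present in 37.4%, AGGTCA in 16.3%, TATAAA in 13.6%, CACGTG in 7.15% and DR1 in 0.0396%. The windows at hand but not shown, among members called in both comparisons, belong to 1700110K17Rik, Rab10os and 1500002C15Rik, which were also raised. Their RefSeq and GENCODE starts lie 10046, 287 and up to 285 bases apart. The nuclear receptor element was found once in 1700110K17Rik and once in Rab10os, which also held 1 CCAAT element and 1 E-box. The windows of 1500002C15Rik held none of the 5 motifs. Such matches describe the letters only and do not show binding.

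The clearest rise was that of 6330403L08Rik, a transcript of 1 exon block opposite Pdgfa, which encodes the A chain of platelet-derived growth factor (chr5:138995056-139000577, plus strand). Its lowest, median and highest CPM were 9.66, 12.5 and 14.3 in Ctr BSA and 18.1, 21.2 and 23.4 in Ctr PA, 9.90, 13.4 and 14.5 in αGlu BSA and 19.3, 21.8 and 24.8 in αGlu PA. Every PA library lay above every BSA library with either ASO. The log2 fold change was 0.76 ± 0.081 (SE, adjusted p = 2.39e-07) in Ctr cells and 0.77 ± 0.080 (adjusted p = 2.19e-07) in αGlu cells. Pdgfa itself rose less, by 0.25 ± 0.093 (adjusted p = 0.0449) and 0.33 ± 0.093 (adjusted p = 0.0096), with 14.7% of the antisense exonic bases shared.

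4933431E20Rik (chr3:107888850-107896213, minus strand), which starts 392 bases from the glutathione transferase gene Gstm5 and overlaps Eps8l3, a gene with too few reads to be tested, behaved alike. It had 13.1, 15.1 and 15.8 CPM in Ctr BSA and 19.4, 20.4 and 24.3 in Ctr PA, 14.2, 15.6 and 16.2 in αGlu BSA and 18.1, 19.5 and 22.8 in αGlu PA. The PA and BSA libraries did not overlap in either background. It rose by 0.49 ± 0.063 on the log2 scale (adjusted p = 3.19e-06) in Ctr cells and by 0.35 ± 0.063 (adjusted p = 1.77e-04) in αGlu cells.

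1500002C15Rik, a transcript of 1 exon block opposite Ssu72, which encodes a phosphatase of RNA polymerase II, was the third raised member without overlap in either background. Its lowest, median and highest CPM were 2.38, 3.15 and 3.95 in Ctr BSA against 4.23, 4.77 and 5.47 in Ctr PA, and 1.78, 2.89 and 3.36 in αGlu BSA against 3.43, 5.004 and 5.56 in αGlu PA. The rises were 0.61 ± 0.13 (adjusted p = 0.00104) and 0.76 ± 0.13 (adjusted p = 1.15e-04), while Ssu72 had 0.06 ± 0.063 and 0.07 ± 0.063 and was not called.

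The member with the highest level per length, Ttc39aos1, rose as well. It had 7.68, 10.51 and 13.9 CPM in Ctr BSA and 11.5, 14.4 and 17.4 in Ctr PA, 8.23, 9.51 and 13.6 in αGlu BSA and 12.9, 14.8 and 17.8 in αGlu PA. The groups overlapped, and the rise was present in each batch (0.49 and 0.37 in Ctr cells, 0.75 and 0.39 in αGlu cells). It came to 0.43 ± 0.085 (adjusted p = 4.94e-04) and 0.57 ± 0.085 (adjusted p = 1.82e-05). Its neighbour Ttc39a had log2 fold changes of 0.00 ± 0.041 and -0.05 ± 0.041 and was not called.

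2410021H03Rik (chr17:69275362-69277208, minus strand), within the body of the membrane skeleton gene Epb41l3, had one of the larger rises together with a wide scatter. Its lowest, median and highest CPM were 4.54, 7.91 and 10.98 in Ctr BSA, 6.34, 13.6 and 19.2 in Ctr PA, 5.26, 7.68 and 10.2 in αGlu BSA, and 7.18, 12.3 and 19.9 in αGlu PA. The groups overlapped broadly. With batch in the model it rose by 0.76 ± 0.14 (adjusted p = 2.54e-04) and 0.74 ± 0.14 (adjusted p = 3.41e-04), and Epb41l3 by 0.18 ± 0.061 (adjusted p = 0.0295) in Ctr cells and 0.12 ± 0.061 (adjusted p = 0.156, not called) in αGlu cells.

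1700110K17Rik was raised by 0.43 ± 0.093 (adjusted p = 0.00105) in Ctr cells and 0.44 ± 0.093 (adjusted p = 8.24e-04) in αGlu cells, from medians of 12.3 to 17.3 and of 10.9 to 15.6 CPM. Its partner Gramd1b rose to a like extent, by 0.38 ± 0.091 and 0.42 ± 0.091. A530020G20Rik, at the choline transporter-like gene Slc44a3, rose by 0.43 ± 0.13 and 0.49 ± 0.13, and Slc44a3 by 0.34 ± 0.060 and 0.27 ± 0.060. In Ctr cells the 2 smallest called rises belonged to 2 of the most counted members. Brip1os rose by 0.17 ± 0.058 (adjusted p = 0.0266) and 0.23 ± 0.058 (adjusted p = 0.00447), and Rab10os by 0.20 ± 0.070 (adjusted p = 0.0331) and 0.38 ± 0.070 (adjusted p = 2.55e-04). The calls in Ctr cells were lost for Brip1os without S3, S13 or S15 (adjusted p of up to 0.0766) and for Rab10os without S9, S11, S15, S17 or S19 (up to 0.0816). Also raised with both ASOs were A030001D20Rik (0.49 and 0.61), Gm20400 (0.81 and 0.79) and 1700113A16Rik (0.51 and 0.50). The call of 1700113A16Rik was lost in Ctr cells without S9 (adjusted p = 0.0503) and in αGlu cells without S14 or S20 (up to 0.0624). For Gm20400 the rise in αGlu cells was 1.22 in batch 1 and 0.30 in batch 2.

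**Figure D3:**
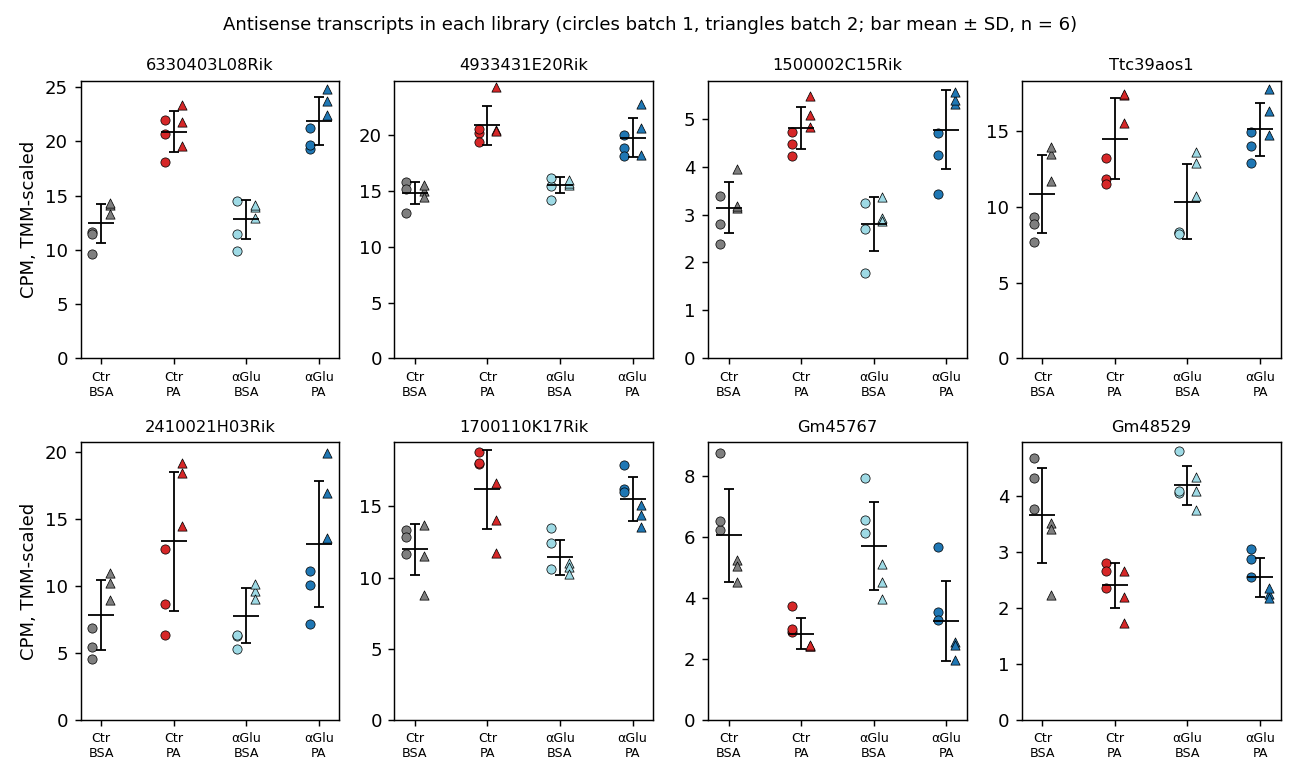
TMM-scaled CPM (y axis) of 8 PA-responsive antisense transcripts in every library, by group (x axis), with circles for batch 1, triangles for batch 2 and a bar for the mean ± SD of 6 libraries. For 6330403L08Rik all PA libraries lie at 18.1 CPM or more and all BSA libraries at 14.5 or less, while Gm45767 and Gm48529 are lower under PA.

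Gm45767 fell furthest. It is a transcript of 1 exon block (chr8:94675606-94680166, plus strand) opposite Pllp, the gene of the membrane protein plasmolipin. It had 4.53, 5.73 and 8.76 CPM in Ctr BSA and 2.42, 2.67 and 3.75 in Ctr PA, 3.97, 5.63 and 7.93 in αGlu BSA and 1.95, 2.92 and 5.67 in αGlu PA. The Ctr groups were separate, and in αGlu cells 1 PA library of batch 1 lay among the BSA libraries. The log2 fold change was -1.09 ± 0.14 (adjusted p = 4.60e-06) in Ctr cells and -0.83 ± 0.14 (adjusted p = 9.76e-05) in αGlu cells. Pllp had -0.03 ± 0.37 and 0.44 ± 0.36 and was not called.

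Gm48529 fell together with its partner. Tagln, which encodes the actin-binding protein transgelin of smooth muscle and other contractile cells, dropped from a median of 173 to 15.9 CPM in Ctr cells and from 157 to 17.9 CPM in αGlu cells, with log2 fold changes of -3.25 ± 0.30 (adjusted p = 3.63e-08) and -3.14 ± 0.30 (adjusted p = 5.80e-08). Gm48529 had 2.23, 3.64 and 4.67 CPM as the lowest, median and highest value in Ctr BSA against 1.72, 2.51 and 2.80 in Ctr PA, and 3.75, 4.08 and 4.79 in αGlu BSA against 2.18, 2.45 and 3.05 in αGlu PA. Its αGlu groups did not overlap, and its Ctr groups did. It had log2 fold changes of -0.60 ± 0.14 (adjusted p = 0.00198) and -0.73 ± 0.14 (adjusted p = 2.87e-04). The share of its exonic bases that lie in Tagln exons was 48.9%. The 7 fibroblast and stellate cell markers, all detected, were followed as a sum only, which was lower under PA. It ran from 67.2 to 416 CPM in Ctr BSA and from 6.89 to 42.6 in Ctr PA, without overlap. In αGlu cells it ran from 39.5 to 931 CPM in BSA (median 128) and from 4.37 to 159 in PA (median 13.3), with overlap. The part of shared exons or of cell composition in the fall of Gm48529 was not tested.

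The remaining 2 members lowered with both ASOs had smaller and less stable values. Gm48796, opposite the adhesion gene Jam3, had log2 fold changes of -0.35 ± 0.12 (adjusted p = 0.0375) and -0.55 ± 0.13 (adjusted p = 0.00167), and Gm26737, opposite the ubiquitin ligase gene Rnf26, of -0.56 ± 0.20 (adjusted p = 0.0381) and -0.59 ± 0.20 (adjusted p = 0.0296). In Ctr cells the call was lost for Gm48796 when any of 7 single libraries was left out and for Gm26737 when any of 8 was (adjusted p of up to 0.104 and 0.0951), and in αGlu cells for Gm26737 with any of 6 (up to 0.0722).

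A230072E10Rik was called in Ctr cells alone, at 0.58 ± 0.20 against 0.24 ± 0.19 in αGlu cells. The 6 members called in αGlu cells alone were A630072M18Rik, which fell by 0.42 ± 0.13, and Gm20633 (0.71 ± 0.22), Gm13375 (0.54 ± 0.18), Gm20163 (0.49 ± 0.18), Gm15417 (0.48 ± 0.17) and 2900093K20Rik (0.43 ± 0.16), which rose. Several of these calls were lost when 1 library was left out. That of A230072E10Rik was lost without S13 or S23 (adjusted p of up to 0.0808), that of Gm13375 without S14, S16 or S24 (up to 0.0753), and those of Gm20163, Gm15417 and 2900093K20Rik when any of 12, 10 and 8 single libraries was left out (up to 0.0947, 0.0939 and 0.115). Of A630072M18Rik 95.05% of the exonic bases lie in exons of Rsbn1l, which had -0.27 ± 0.066 (adjusted p = 0.00312) in Ctr and -0.25 ± 0.065 (adjusted p = 0.00636) in αGlu cells. In Ctr cells these 6 members had -0.31, 0.49, -0.05, 0.22, 0.09 and -0.01 in the same order. Being called with 1 ASO and not with the other does not make the responses different. The test of the difference between the PA responses called none of the 100 members (0 called by edgeR and by DESeq2, 1 at an unadjusted p below 0.05 in each, 0% of all genes called by edgeR). The member with the smallest p was Gm13375 with a difference of 0.60 ± 0.25 (adjusted p = 0.999), followed by Gm10762, an antisense transcript at the start of Zc3h6, with 0.32 ± 0.16 (adjusted p = 0.999).

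The partners of the PA-responsive members were called in part, and some moved with the antisense transcript. Of the 17 called members with a tested partner in Ctr cells, 6 had a partner called in the same direction (Rab10, Pdgfa, Gramd1b, Epb41l3, Slc44a3 and Tagln), 2 a partner called in the opposite direction and 9 a partner that was not called. These 8 of 17 partners (47.1%) stand beside 20 of 72 (27.8%) for members that were not called and 30% of all genes. Among the opposite pairs was A230072E10Rik with the kinase gene Wnk3, which had -0.28 ± 0.10 (adjusted p = 0.0383). In αGlu cells 6 of 21 partners were called in the same direction (Pdgfa, Gramd1b, Slc44a3, Rsbn1l, Tagln and Mef2d), none in the opposite one, and 15 were not called, a called share of 28.6% beside 21 of 68 (30.9%) for uncalled members and 28.5% of all genes. The shares were not compared by a test. Over all 89 tested pairs antisense transcript and partner had the same sign in 59 in Ctr cells and in 45 in αGlu cells. Across pairs, which share libraries and are not replicates, the fold changes had a Spearman's rho of 0.23 and a Pearson's r of 0.29 in Ctr cells, the latter 0.18 without the pair of Gm48529 and Tagln. In αGlu cells the corresponding values were 0.14, 0.24 and 0.09. Gm26982 showed how far a pair could part. Its partner Ghrl, the ghrelin gene, had log2 fold changes of -1.89 ± 0.49 (adjusted p = 0.00524) and -2.20 ± 0.50 (adjusted p = 0.00172) at medians of 0.37 to 1.66 CPM, whereas Gm26982 had -0.34 ± 0.15 (adjusted p = 0.088) and -0.17 ± 0.15 (adjusted p = 0.420).

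**Figure D4:**
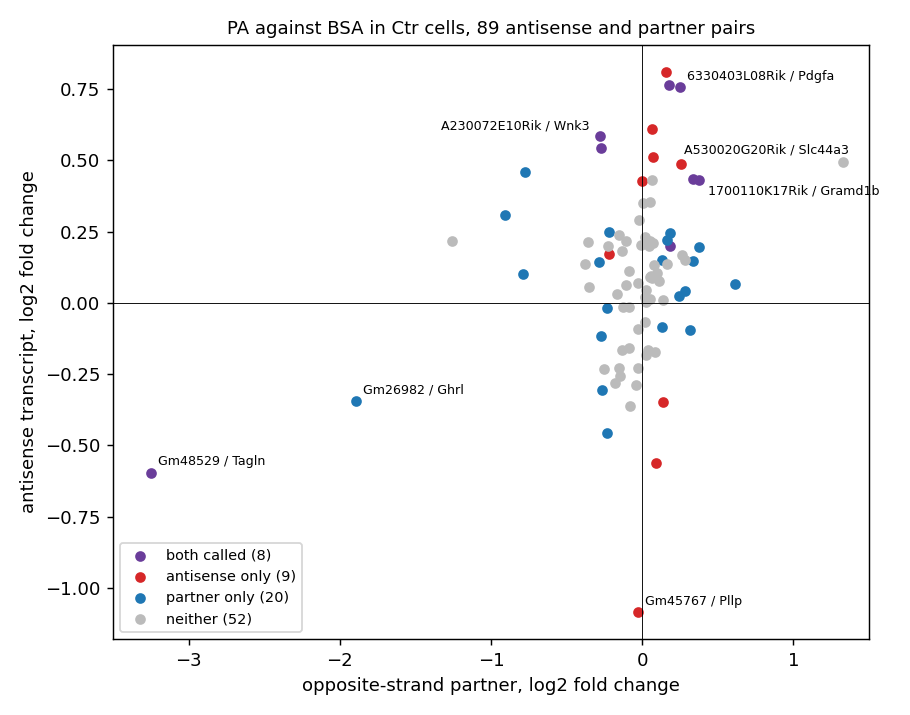
Log2 fold change under PA in Ctr cells of the opposite-strand partner (x axis) and of the antisense transcript (y axis) for 89 pairs, 1 point per pair, coloured by which gene of the pair had an adjusted p below 0.05. In 8 pairs both genes are called, among them Gm48529 with Tagln at the lower left, and Gm45767 lies at -1.09 with Pllp near 0.

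Blocking 5'tRF-Glu(CTC) moved no abundant antisense transcript past the threshold. In BSA, αGlu against Ctr gave 0 called members in edgeR and in DESeq2, with 2 at an unadjusted p below 0.05 in each. Of all 15916 genes edgeR called 0% and DESeq2 called 8. The members with the smallest p were Gm10762, with a log2 fold change of -0.26 ± 0.11 (adjusted p = 1.00), and Kcnq1ot1, with -0.37 ± 0.16 (adjusted p = 1.00). Gm10762 had 5.42, 7.15 and 9.48 CPM in Ctr BSA and 5.11, 5.88 and 6.57 in αGlu BSA, and the groups overlapped. Kcnq1ot1 had 33.8, 41.4 and 86.5 CPM in Ctr BSA and 31.2, 36.3 and 38.9 in αGlu BSA. Its highest value came from the single library S1, without which the fold change was -0.13 ± 0.11 (adjusted p = 0.999).

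In PA the picture was the same, with 0 members called by edgeR and by DESeq2 and 3 at an unadjusted p below 0.05 in each. Of all 15916 genes edgeR called 0% and DESeq2 called 30. Gm20163, which starts 186 bases from 4931428F04Rik and overlaps Exoc3l, had 1.28, 2.40 and 2.90 CPM in Ctr PA and 2.70, 3.21 and 4.51 in αGlu PA, a log2 fold change of 0.54 ± 0.18 (adjusted p = 0.913). Snhg16, a host gene of small nucleolar RNAs, had -0.38 ± 0.17 (adjusted p = 0.993). The groups overlapped in both cases. For 0 of the 100 members did the αGlu and Ctr groups lie apart in BSA or in PA, against 0.0754% and 0.226% of all genes. Over the 100 members the fold changes of αGlu against Ctr lay between -0.37 and 0.27 in BSA and between -0.38 and 0.54 in PA, with a median standard error of 0.15, so differences of the size of this error could not be detected here. No member passed the 2-fold threshold of the study in either medium (0.785% and 0.942% of all genes) or in the difference of the PA responses (0.653%).

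The batch comparison called more of these transcripts than any treatment did, but its errors were also smaller. It set 12 libraries against 12, with a median standard error of 0.106 over the members. PA against BSA set 6 against 6, with 0.150 in Ctr and 0.149 in αGlu cells. The median absolute log2 fold change over the members was similar, at 0.213 for batch and at 0.201 and 0.199 for PA in Ctr and αGlu cells. Between batch 2 and batch 1, with the groups in the model, 46 members were called, 38 higher and 8 lower in batch 2, where 51.5% of all genes were called (26.1% higher and 25.4% lower). The median log2 fold change over the members was 0.14 against 0.00 over all genes, and 71 members were above 0. Of the 24 members called under PA with either ASO, 15 were also called by batch. Of these, 11 were raised by PA and higher in batch 2. Another 2 were lowered by PA and lower in batch 2, and 2 were called in opposite directions. Batch calls were frequent among members and all genes alike, and 38 of the 46 members called by batch were higher. The matching overlap among all genes called under PA was not counted. Whether PA and batch calls coincide more often than these shares alone would give was not tested.

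Gm44850 differed most and was the only member whose batches did not overlap, as was the case for 6.87% of all genes. It had 1.35, 1.90 and 2.87 CPM in batch 1 and 3.65, 4.96 and 6.08 in batch 2, a log2 fold change of 1.28 ± 0.14 (adjusted p = 6.43e-08), and it alone passed a 2-fold change (6.38% of all genes). Its partner Itgad, an integrin gene, was nearly absent at 0.0046 TPM. 2410021H03Rik (0.82 ± 0.10), A530020G20Rik (0.78 ± 0.091), Gm11789 (0.85 ± 0.12) and Ttc39aos1 (0.46 ± 0.060) were also higher in batch 2. The lower members included Snhg16 (-0.88 ± 0.12, from a median of 6.71 to 3.73 CPM), 1500015A07Rik (-0.68 ± 0.089, from 8.46 to 5.34), Gm45767 (-0.59 ± 0.10, from 5.90 to 3.26), Gm16638 (-0.49 ± 0.096, from 4.85 to 3.15) and 1110002L01Rik (-0.20 ± 0.043, from 26.1 to 22.6).

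Partners were called between the batches at a share near that of all genes. Of 41 batch-called members with a tested partner, 21 had a partner called in the same direction, 4 in the opposite one and 16 none, so that 25 of 41 of these partners were called against 24 of 48 for uncalled members, 55.7% of all tested partners and 51.5% of all genes. The shares were not compared by a test, and 59 of 89 pairs had the same sign. Cell type markers also moved with the batch. The 8 acinar markers found of 9 summed to 2937 to 20692 CPM in batch 1 and 207 to 579 in batch 2, without overlap, and the β-cell markers to 83829 to 133789 and 110049 to 151648 CPM. Their part in the antisense differences was not tested. In 3 of the islet pairs partner and antisense transcript were higher together in batch 2, Pcsk2os1 by 0.44 ± 0.067 with Pcsk2 by 0.46 ± 0.049, Plut by 0.47 ± 0.092 with Pdx1 by 0.37 ± 0.047, and Gm11789 by 0.85 ± 0.12 with the glucagon receptor gene Gcgr by 0.49 ± 0.063.

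**Figure D5:**
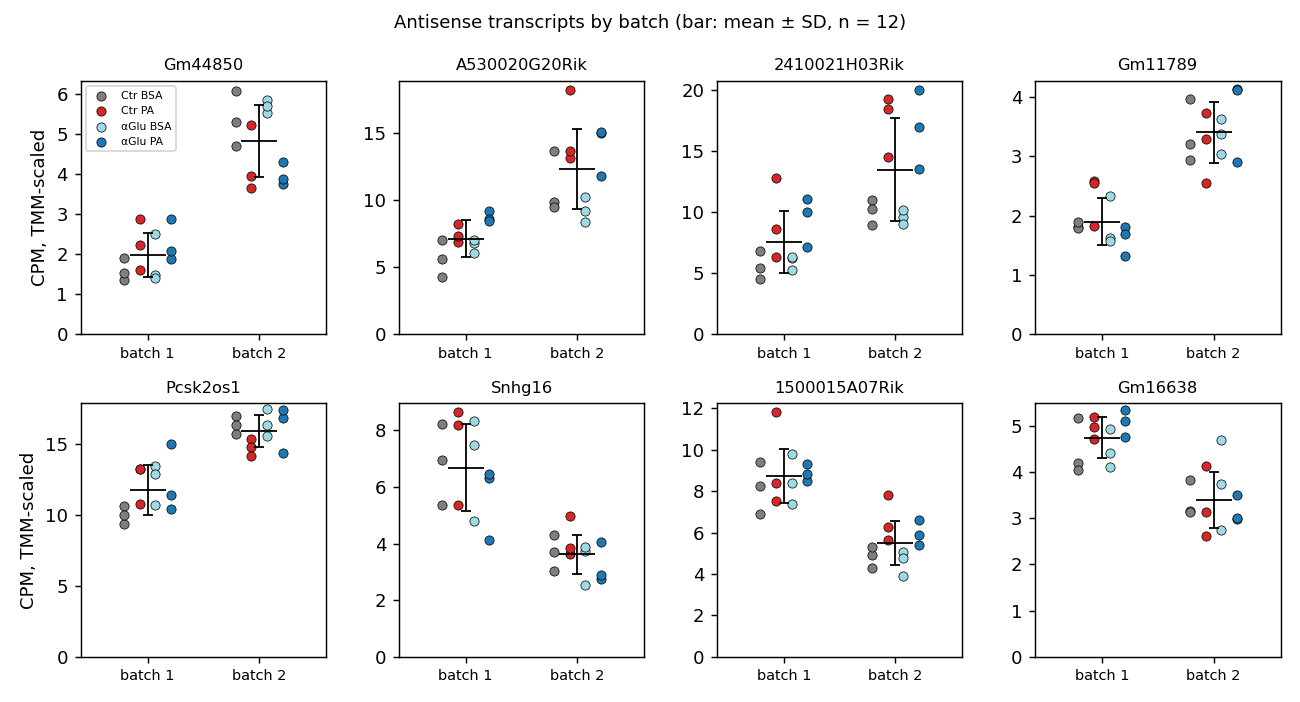
TMM-scaled CPM (y axis) of 8 antisense transcripts in the 12 libraries of batch 1 and of batch 2 (x axis), coloured by group, with a bar for the mean ± SD. The batches of Gm44850 are separate (highest 2.87 CPM in batch 1, lowest 3.65 in batch 2), and Snhg16, 1500015A07Rik and Gm16638 are lower in batch 2.

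Several antisense transcripts at islet and imprinted loci were called in no treatment comparison. Pax6os1 had medians of 15.4 and 17.5 CPM in BSA and PA with the Ctr ASO and of 16.1 and 16.7 CPM with αGlu, and PA gave 0.11 ± 0.079 (adjusted p = 0.308) and 0.07 ± 0.079 (adjusted p = 0.581) on the log2 scale. Plut had medians of 11.3, 9.58, 11.5 and 9.68 CPM and PA fold changes of -0.29 ± 0.13 (adjusted p = 0.0954) and -0.23 ± 0.13 (adjusted p = 0.200), with Pdx1 at -0.04 and 0.00. Pcsk2os1 had 0.08 ± 0.095 (adjusted p = 0.574) and -0.02 ± 0.094 (adjusted p = 0.922). Airn, which spans chr17:12741311-12860136 on the plus strand and overlaps Igf2r, had medians of 9.45, 9.57, 8.99 and 10.2 CPM, with PA fold changes of 0.11 ± 0.092 (adjusted p = 0.408) and 0.20 ± 0.091 (adjusted p = 0.104). Kcnq1ot1 had -0.28 ± 0.16 (adjusted p = 0.210) in Ctr cells, or -0.04 ± 0.11 without library S1, and 0.03 ± 0.16 (adjusted p = 0.908) in αGlu cells. In total 45 of the 100 members were called in none of the 6 comparisons. The matching share of all genes was not counted, so this number is not read as particular to the members.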

How the data were processed

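mRNA libraries (Illumina Stranded mRNA kit, poly(A) selected) were sequenced on an AVITI instrument and processed by the authors with the QIAGEN RNA-seq Analysis Portal 5.1 on GRCm38, per the labels. For the aligner, annotation release and strand setting, nothing was given in the sources used here. In units, the deposited table holds, for each library, the read count per gene, RPKM, TPM and a scaled CPM signal made by the authors. The counts were used for the tests and the deposited TPM for levels per length, and the 48 RPKM and signal columns were not used.

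Members and lists were chosen with earlier results of these data known. Counts were fitted with edgeR 4.0.16 in R 4.3.3 (TMM, filterByExpr, quasi-likelihood F-test, two-sided, group and batch as terms, all 24 libraries), with Benjamini-Hochberg adjustment over 15916 genes and a call at an adjusted p below 0.05. The procedure was tested on simulated data. CPM are TMM-scaled. The biological coefficient of variation was 15.4%. DESeq2 1.42.0, other filters, scaling, batches and thresholds, and leaving out each library were alternatives. The study's own threshold, a fold above 2 with an unadjusted p, was one of them. Counting error alone limits a member with 65.5 reads per library more than one with 1036.

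Coordinates, exons and partners come from GENCODE M21 (GRCm38), partners being taken from the symbol or, failing that, from the overlapping opposite-strand gene. Named were the 10 members of largest summed count, per comparison up to 5 raised and 5 lowered members of smallest p (2 where none was called), members called beyond a 2-fold change, those around the limit of 100, and their partners. Further members called under PA, those at islet hormone, islet transcription factor or imprinted loci, the extremes of level per length, and pairs with the largest exon overlap or TPM ratio were named after their values were seen. The individual values of 1 called member and its partner are not reported here. The sources used here give no sample-level number that pairs libraries.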

Additional observations from a re-analysis of the deposited data

Results flagged for a closer look

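Among 30 antisense transcripts with 4 groups each, 3 of 120 groups held a library far from the other 5 by Dixon's criterion. By chance this criterion would flag about 1 group in 20. Partners were not screened. Kcnq1ot1 stood at 86.5 CPM in Ctr BSA library S1 against 33.8 to 43.7 CPM in the other 5. 4933431E20Rik stood at 24.3 CPM in Ctr PA library S19 against 19.4 to 20.5 CPM, and at 14.2 CPM in αGlu BSA library S2 against 15.4 to 16.2 CPM. The rise of 4933431E20Rik under PA was called in every fit that left out 1 library, with a log2 fold change of 0.45 to 0.52 in Ctr cells and 0.31 to 0.38 in αGlu cells.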

How the results depend on the processing

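The counts of called members under PA (18 in Ctr and 23 in αGlu cells) fell to 7 and 14 without the batch term, to 8 and 5 in batch 1 alone, to 6 and 10 in batch 2 alone, and to 1 and 0 at the threshold of the study, which also left 1 of the 46 batch calls. Single batches hold 3 libraries per group, and for the other settings the cause was not tested. Leaving out 1 library at a time gave 14 to 21 calls in Ctr cells, 19 to 22 in αGlu cells, and 43 to 49 by batch. Under PA, 12 of 18 calls in Ctr cells and 17 of 23 in αGlu cells held in every such fit. Every other setting stayed within 1.5 times, with 13 and 18 calls without the filter, 12 and 26 from the 2 groups compared, and 18 and 24 by DESeq2. The comparisons of αGlu with Ctr and of the PA responses gave 0 members in all settings run. No paired analysis was possible because the libraries carry unique numbers in the labels, with none shared between groups. The study describes the groups of a replicate as drawn from 1 animal or passage, but the labels do not tie libraries to animals, so the fits treat libraries as independent. Members near the limit have about 66 reads per library, which limits what can be called among them.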
